A study of Mus musculus with 16 samples.

Results

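The nuclear genes of oxidative phosphorylation were followed complex by complex in brain and liver of mice that carry HdhQ111, a knock-in allele in which the CAG repeat of huntingtin is lengthened. Members were chosen by symbol: every platform symbol that starts with Nduf, Sdha, Sdhb, Sdhc, Sdhd, Uqcr, Cox4 to Cox8 or Atp5, and Cyc1. This gave 75 of the 9030 genes named on the platform, read by 103 probes. They comprised 27 genes of complex I, 4 of complex II, 8 of complex III, 15 of complex IV and 15 of complex V, here called structural members, and 6 assembly factors that stayed out of the complex medians. None of the 13 respiratory chain genes encoded by mitochondrial DNA was among the named probes.

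All mutants were HdhQ111/+ heterozygotes, and all animals were C57BL/6J males aged 18 weeks with no treatment named in the labels. Each of 4 mutant mice, separate animals per the labels, gave both tissues, and on 2-colour arrays its RNA was set against RNA of the same tissue pooled from 4 wildtype mice. With dyes exchanged, every RNA was run 2 times, which gave 16 arrays. A value is a log2 ratio, likely HdhQ111 over wildtype: base and sign follow the labels and the design, but no header states them. A mouse's value is the mean of its dye pair, and mice 1 to 4 are the replicates. Because the wildtype mice were pooled, the pool is 1 control sample per tissue, and its own spread is in no test.

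Oxidative phosphorylation passes electrons from NADH (complex I) and succinate (complex II) through complex III and cytochrome c to oxygen at complex IV, and complex V uses the resulting proton gradient to make ATP. Most subunits are encoded in the nucleus, and a number of their promoters are known to carry sites for the transcription factors NRF1 and YY1. Brain draws heavily on this pathway for synaptic activity, and liver for urea and glucose synthesis and fatty acid oxidation.

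Each array held 19530 to 20584 probe values. Of the 1648 array values of the members, 12 were empty and 1 was over 10 in size and taken as missing. Over all genes, limma with Benjamini-Hochberg adjustment called 3 genes in brain (Prl, Pomc and Crybb2), 0 in liver (8.24% were under an unadjusted p of 0.05) and 2 for liver minus brain (Prl and Pomc), and none was a member. Pituitary markers, 6 genes, had per-mouse medians of -1.33, -1.56, -2.36 and -2.69 in brain, and their part in the members' values was not tested. Since only ratios are given, the labelled tissues could not be checked from the levels of their markers. In RNA from whole tissue, fewer cells of a type and less RNA per cell cannot be told apart.

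The promoters of the members that recur below are shown because DNA words known from respiratory chain genes were searched in them. Windows of 250 bases before to 50 bases after the gene start were available from RefSeq (GRCm38.p6) for 63 of the 75 members (84%). Searched on both strands were a 10-base NRF1 word (GCGCA, any base, then GCGC), an 8-base NRF1 word (GCATGCGC) and the YY1 word AANATGGCG, where N is any base. The NRF1 words overlap when the free base is T. The 10-base word was present in 15 member windows (23.8%) and in 5.19% of the windows of 27025 genes. GCATGCGC was present in 9 (14.3%) against 3.05%, and AANATGGCG in 10 (15.9%) against 2.76%. Both NRF1 words overlapped in 4 members (6.35%) against 1.09% of all genes, and no member held an NRF1 and a YY1 word. The windows, read 5′ to 3′ on the gene's strand, are Sdha chr13:74350191-74350490 (minus strand), Sdhb chr4:140961021-140961320 (plus strand), Uqcrc1 chr9:108936398-108936697 (plus strand), Atp5k chr5:108434350-108434649 (minus strand), Atp5l chr9:44920693-44920992 (minus strand), Uqcrh chr4:116075021-116075320 (minus strand) and Ndufa13 chr8:69901971-69902270 (minus strand). Capitals mark the NRF1 words. Sdha and Uqcrc1 hold several, Atp5k 1 palindromic word, Sdhb and Atp5l the shorter word, and Uqcrh and Ndufa13 none of the words in this window.
Sdha: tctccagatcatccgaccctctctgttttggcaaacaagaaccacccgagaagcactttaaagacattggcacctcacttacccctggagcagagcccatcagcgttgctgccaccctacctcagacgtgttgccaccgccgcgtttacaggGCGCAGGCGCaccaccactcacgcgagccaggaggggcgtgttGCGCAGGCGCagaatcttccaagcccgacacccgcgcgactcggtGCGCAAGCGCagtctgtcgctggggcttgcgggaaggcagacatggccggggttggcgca
Sdhb: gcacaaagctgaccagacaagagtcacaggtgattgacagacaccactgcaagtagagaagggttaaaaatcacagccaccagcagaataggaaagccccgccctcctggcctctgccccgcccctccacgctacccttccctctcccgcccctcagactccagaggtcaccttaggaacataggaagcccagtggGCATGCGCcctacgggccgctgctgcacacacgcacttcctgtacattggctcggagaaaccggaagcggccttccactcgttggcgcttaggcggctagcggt
Uqcrc1: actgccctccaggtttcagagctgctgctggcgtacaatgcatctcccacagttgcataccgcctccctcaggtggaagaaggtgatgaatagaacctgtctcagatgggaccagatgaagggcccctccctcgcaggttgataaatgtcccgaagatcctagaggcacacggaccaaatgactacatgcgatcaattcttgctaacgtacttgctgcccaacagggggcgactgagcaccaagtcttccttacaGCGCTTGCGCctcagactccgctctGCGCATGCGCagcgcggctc
Atp5k: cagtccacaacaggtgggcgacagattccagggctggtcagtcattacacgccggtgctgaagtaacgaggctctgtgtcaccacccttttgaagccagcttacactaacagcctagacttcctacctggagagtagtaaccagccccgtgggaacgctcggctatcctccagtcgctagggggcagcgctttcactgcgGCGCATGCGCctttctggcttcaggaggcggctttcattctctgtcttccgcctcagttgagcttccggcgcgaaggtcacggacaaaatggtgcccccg
Atp5l: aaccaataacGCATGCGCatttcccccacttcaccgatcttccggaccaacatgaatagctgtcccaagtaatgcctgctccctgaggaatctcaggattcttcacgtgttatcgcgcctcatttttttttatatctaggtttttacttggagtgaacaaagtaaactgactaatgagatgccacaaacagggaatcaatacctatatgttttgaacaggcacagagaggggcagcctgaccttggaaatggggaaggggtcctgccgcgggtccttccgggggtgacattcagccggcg
Uqcrh: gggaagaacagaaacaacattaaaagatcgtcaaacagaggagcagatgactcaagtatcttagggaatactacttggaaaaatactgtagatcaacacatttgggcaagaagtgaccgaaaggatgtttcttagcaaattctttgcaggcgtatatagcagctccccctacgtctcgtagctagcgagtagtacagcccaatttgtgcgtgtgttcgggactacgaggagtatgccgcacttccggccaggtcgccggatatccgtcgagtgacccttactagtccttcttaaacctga
Ndufa13: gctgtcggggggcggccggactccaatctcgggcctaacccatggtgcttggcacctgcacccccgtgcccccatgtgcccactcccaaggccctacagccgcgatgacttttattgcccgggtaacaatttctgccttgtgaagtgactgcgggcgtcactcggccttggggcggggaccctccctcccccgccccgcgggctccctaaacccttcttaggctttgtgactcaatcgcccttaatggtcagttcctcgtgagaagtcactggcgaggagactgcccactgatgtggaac

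With both dye orientations averaged, the members had mostly lower values in mutant livers and mostly slightly higher ones in mutant brains. No single member passed the test in either tissue. With mutant RNA in Cy5 alone 40 of 75 were below 0 in liver, and with it in Cy3 alone 25 of 75 were above 0 in brain. Of 75 members in liver, 64 had a mean below 0, against 56.6% of all genes tested, with a median of -0.17 against -0.03 over all genes. In brain, 63 of 74 members had a mean above 0, against 56.7% of all genes, with a median of 0.10 against 0.02. Atp5g3 had values in only 2 brain mice and was left out there. The smallest limma p of a member, adjusted over all genes by the Benjamini-Hochberg method, was 0.999 in brain and 0.575 in liver. The adjusted threshold was passed by 0 members in each tissue, against 0.035% of genes in brain and 0% in liver. At an unadjusted p under 0.05, 0 members lay past it in brain, where 3.92% of all genes did. In liver 10 members were lower, against 5.24% of all genes, and 1 (Ndufaf3) was higher, against 3%. Members share their arrays and the wildtype pool, so the number of members on one side of 0 is not a number of independent observations. Gene names rest on an offset of 11 places between names and values, which no source states: with names taken as given, the mean structural median in liver was -0.017 in place of -0.18.

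The mice did not behave alike in brain. Over all 69 structural members the median ratio was -0.12 in mouse 1, 0.07 in mouse 2, 0.36 in mouse 3 and 0.11 in mouse 4. Mouse 1 was below 0, mouse 3 far above the others, and mice 2 and 4 lay between. Without mouse 3, only 40 of 72 members had a mean above 0 in brain. Every mouse was above 0 for 5 of 74 members, close to the 6.6% of all genes. In liver the structural medians were -0.24, -0.32, -0.14 and -0.01, so that mice 1 to 3 were below 0 and mouse 4 was near it. Every liver was below 0 for 28 of 75 members, against 14.1% of all genes. The median SD of a member over mice was 0.26 in brain and 0.18 in liver. From mouse to mouse the median of all genes moved in the same order in brain (-0.10, 0.01, 0.15 and 0.04). Relative to it, the structural members were at -0.02, 0.06, 0.21 and 0.07 in brain and at -0.17, -0.28, -0.12 and -0.01 in liver.

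**Figure D1:**
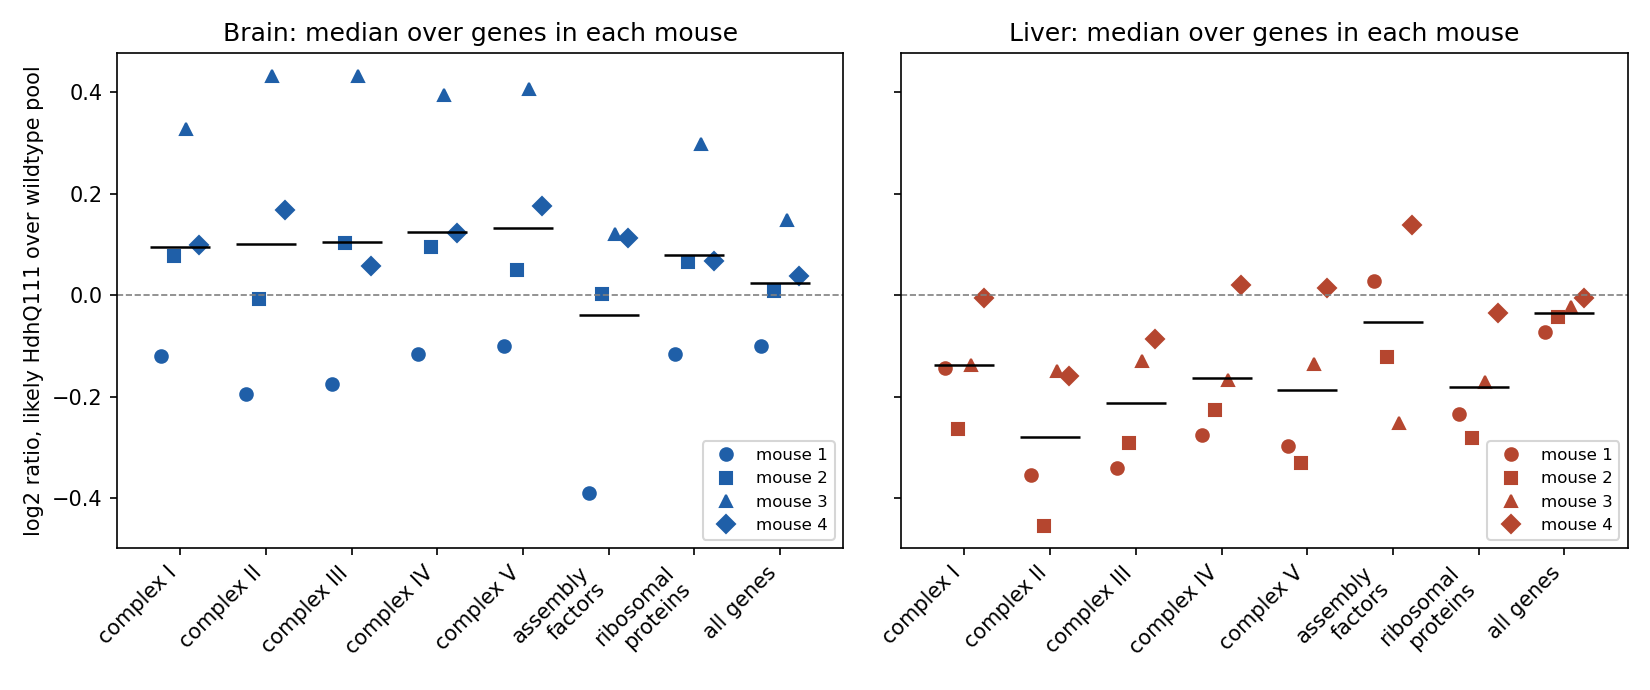
Median log2 ratio (vertical axis, likely HdhQ111 over the wildtype pool) over the genes of each complex in each mouse, in brain and liver; symbols are the 4 mice and black lines their mean. In brain mouse 1 is below 0 and mouse 3 is highest for all 5 complexes, while in liver mice 1 to 3 are below 0 for all 5 and ribosomal protein genes lie at similar values.

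The complexes were compared by their median in each mouse. In brain the mean of the 4 mouse medians was 0.10 ± 0.18 (SD, n = 4) for complex I, 0.10 ± 0.27 for complex II, 0.10 ± 0.25 for complex III, 0.12 ± 0.21 for complex IV and 0.13 ± 0.21 for complex V. These means rested on single mice. Without mouse 3 they were 0.018, -0.042, -0.0049, 0.034 and 0.042 for complexes I to V, so that complexes II and III changed sign, and without mouse 1 they were 0.17, 0.20, 0.20, 0.20 and 0.21. Without mouse 2 complex II was at 0.16. Among the 10 pairs of complexes, the largest mean difference in brain was 0.04, and 1 pair differed the same way in all 4 mice (complex I below complex IV, by 0.03 ± 0.03). In liver the means were -0.14 ± 0.11 for complex I, -0.28 ± 0.15 for complex II, -0.21 ± 0.12 for complex III, -0.16 ± 0.13 for complex IV and -0.19 ± 0.16 for complex V. Complex II, with only 4 genes, was the lowest. It lay below complex I by 0.14 ± 0.09, below complex V by 0.09 ± 0.07 and below complex III by 0.07 ± 0.07 in all 4 mice. The other 7 pairs of complexes in liver were not ordered alike in every mouse. The order in all 4 mice rested on averaging the dyes. On the Cy5 arrays complex II (-0.055 ± 0.18) was close to complex III (-0.026 ± 0.14), and in mouse 3 it lay above complexes I and III (0.099, -0.0775 and 0.045). On the Cy3 arrays it (-0.49 ± 0.24) was close to complex V (-0.47 ± 0.28), and in mouse 1 it lay above complex V (-0.598 and -0.775). For liver minus brain the means were -0.24 ± 0.22, -0.35 ± 0.16, -0.31 ± 0.22, -0.28 ± 0.19 and -0.35 ± 0.20 for complexes I to V. These medians are a description, and no test was made over a complex.

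**Figure D2:**
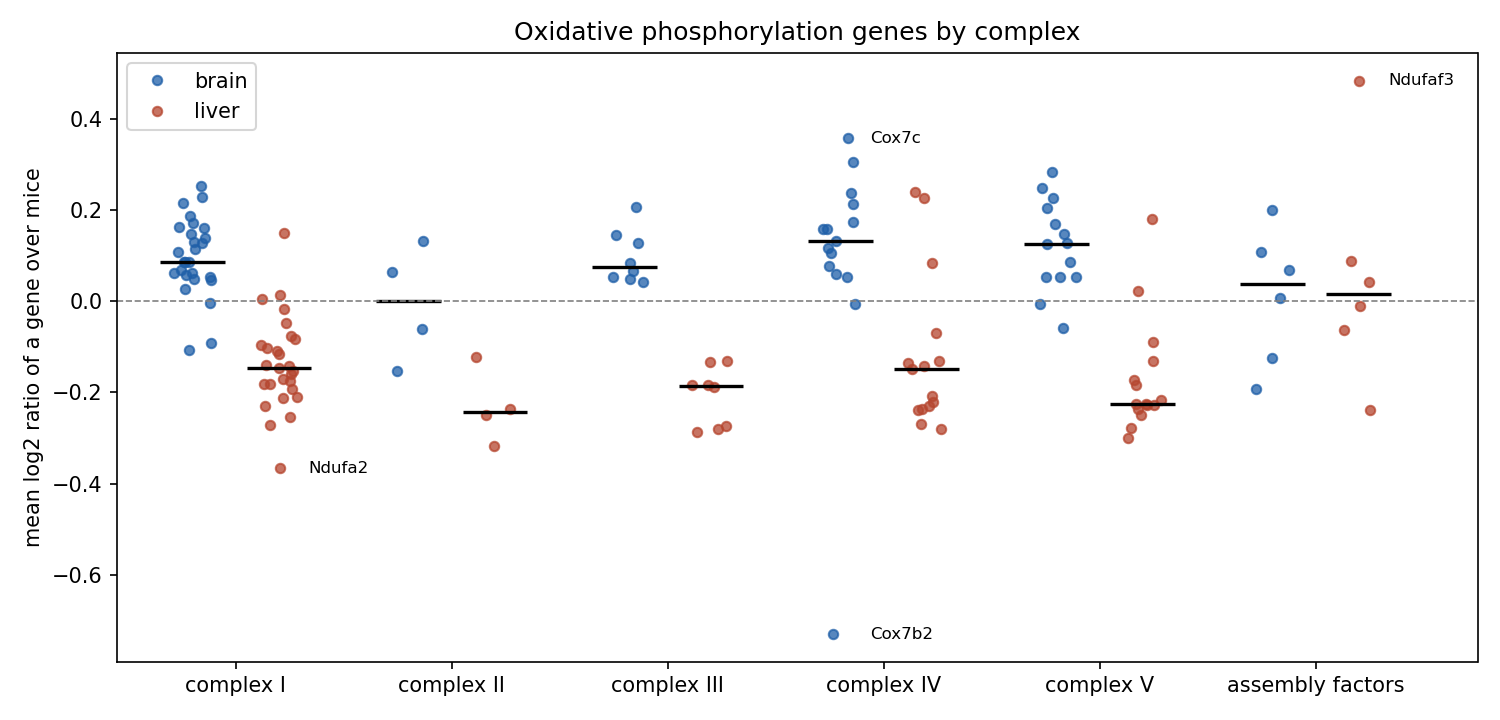
Mean log2 ratio over mice (vertical axis) of every member with values in at least 3 mice, by complex, in brain (blue) and liver (red); black lines are the median over genes. With both dye orientations and the probes of a gene averaged, complex III has all 8 genes above 0 in brain and below 0 in liver. The labelled genes are the highest and the lowest of each tissue.

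Complex I, the NADH dehydrogenase, had 24 of 27 genes above 0 in brain and 24 of 27 below 0 in liver. The subunits of the matrix arm, which takes electrons from NADH, had a median of 0.07 in brain and -0.13 in liver (12 genes), and those of the proton-pumping membrane arm 0.11 and -0.15 (15 genes). Both arms thus lay on the same side of 0 in each tissue. Ndufa13, an accessory subunit also known as GRIM-19, had values of 0.09, 0.04, 0.37 and 0.16 in the brains of mice 1 to 4 and of -0.31, -0.25, -0.16 and -0.12 in their livers. All its brains were above 0 and all its livers below, with no overlap. Liver minus brain was -0.37 ± 0.14 (SE), with an adjusted limma p of 0.677. Ndufa1, an accessory subunit needed in human and hamster cells for complex I assembly, was at -0.01, 0.08, 0.43 and 0.19 in brain and at -0.32, -0.40, -0.28 and -0.09 in liver. Its livers also lay below all its brains, and its 2 probes gave -0.27 and -0.28 in liver. Ndufa2, the lowest member in liver at -0.37 ± 0.29 (SD, n = 4), was at -0.67, -0.53, -0.25 and -0.02 there, so that mice 1 and 2 were far lower than mouse 4. Ndufv1, which carries the flavin that first receives the electrons of NADH, was the highest complex I gene in brain at 0.25 ± 0.33, with 0.67 in mouse 3 and -0.09 in mouse 1. Ndufc2 was above 0 in all brains, from 0.06 to 0.44, and its livers ranged from -0.34 to 0.22.

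Complex II, succinate dehydrogenase, is also an enzyme of the citric acid cycle, and all of its subunits are nuclear. All 4 genes were below 0 in liver, and in brain 2 were above 0 and 2 below. Sdhb, the iron-sulfur subunit, was at -0.34, -0.51, -0.12 and -0.30 in liver and at -0.22, 0.06, 0.35 and 0.07 in brain. All its livers were below 0, and its mean there, -0.32 ± 0.16, was the lowest of the complex, with an adjusted limma p of 0.575. Sdha, the flavoprotein that oxidises succinate, was at -0.43, -0.25, -0.19 and -0.08 in liver and had only 3 brain values, -0.17, 0.15 and -0.44 in mice 1 to 3. Sdhc, a membrane anchor, was below 0 in all 4 livers (-0.37, -0.40, -0.17 and -0.05) and ranged from -0.83 to 0.61 in brain. Sdhd, the other anchor, had livers on both sides of 0, at 0.28, -0.61, 0.08 and -0.24. So 3 of the 4 subunits had every liver below 0, and Sdhd did not.

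Complex III, which carries electrons from ubiquinol to cytochrome c, had all 8 genes above 0 in brain and all 8 below 0 in liver, and 6 of the 8 were below 0 in every liver. For Uqcrq this rested on averaging 3 probes, at 0.14, 0.14 and -0.31 in brain and at -0.28, -0.12 and 0.004 in liver. The brain direction turned with the dye: each of the 8 had a brain mean above 0 with mutant RNA in Cy5 and below 0 with it in Cy3. In liver their means on the Cy5 arrays lay on both sides of 0, from -0.11 for Uqcrh to 0.14 for Uqcrq. Uqcrh, the hinge protein that bridges cytochrome c1 and cytochrome c, was at 0.03, 0.23, 0.55 and 0.02 in brain and at -0.44, -0.26, -0.34 and -0.09 in liver. As with Ndufa13, every brain was above 0 and every liver below. The difference was -0.49 ± 0.17 (SE; adjusted limma p 0.677). Cyc1, cytochrome c1 itself, was at -0.35, -0.41, -0.31 and -0.08 in liver and at -0.03, -0.02, 0.30 and 0.09 in brain. Its livers lay below all its brains, though 2 brains were just under 0. Uqcr11, a small subunit, had livers at -0.40, -0.44, -0.15 and -0.09, and Uqcrc1, a core subunit, at -0.33, -0.13, -0.09 and -0.18. Mouse 3 had the highest brain value for both, 0.56 and 0.46.

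Complex IV, cytochrome c oxidase, contained subunits whose forms are used in different tissues. The 10 broadly expressed subunits were all below 0 in liver (median -0.22), and 9 of them were above 0 in brain (median 0.11). The 5 forms typical of muscle or testis (Cox6a2, Cox7a1, Cox8b, Cox6b2 and Cox7b2) had a median of 0.08 in liver, with 3 above 0, and of 0.21 in brain, with 4 above 0. The paralogous forms are therefore set side by side. Cox7a2, the common form, was at -0.46, -0.45, -0.24 and 0.02 in liver, and Cox7a1, the heart and muscle form, at 0.83, 0.06, -0.19 and 0.20. Mouse 1 had the lowest liver value for the first and the highest for the second. Cox8a was at -0.41, -0.44, -0.14 and 0.08 in liver, and Cox8b, its muscle and brown fat form, at 0.52, 0.29, 0.08 and 0.07. Cox8b was the only complex IV gene above 0 in every liver (0.24 ± 0.21), against 7.2% of all genes. Its liver value was 0.11 ± 0.30 on the arrays with mutant RNA in Cy5 and 0.36 ± 0.71 on those with it in Cy3. Cox6a1 and Cox6a2 had liver means of -0.15 ± 0.22 and 0.08 ± 0.19, and Cox6b1 and the testis form Cox6b2 of -0.24 ± 0.18 and -0.07 ± 0.18. On the Cy5 arrays, liver means were -0.05 for Cox7a2, 0.0055 for Cox7a1 and 0.10 for Cox8a. Cox6a1 and Cox6a2 were at -0.085 and 0.22 there, and Cox6b1 and Cox6b2 at -0.09 and -0.30. On the Cy3 arrays, liver means were -0.51 for Cox7a2, 0.45 for Cox7a1 and -0.555 for Cox8a. Cox6a1 and Cox6a2 were at -0.21 and -0.05, and Cox6b1 and Cox6b2 at -0.38 and 0.16. Cox7a2 and Cox7a1, like Cox8a and Cox8b, thus lay apart mainly on the Cy3 arrays. The differences between paralogues were not tested, nor was any signal shared between their probes. A list of 7 muscle and brown fat markers had medians of 0.16 in brain and -0.08 in liver.

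Cox7c, a small nuclear-encoded subunit, was the highest member in brain at 0.36 ± 0.55, with values of -0.29, 0.94, 0.66 and 0.12. Its brain mean was 0.84 ± 1.07 with mutant RNA in Cy5 and -0.12 ± 0.27 with it in Cy3. Its livers were at -0.39, -0.43, -0.29 and 0.03, and liver minus brain, -0.63 ± 0.26 (SE), was the lowest difference in complex IV. Cox4i1, read by 4 probes, was at -0.04, -0.03, 0.48 and 0.29 in brain and at -0.23, -0.23, -0.10 and 0.02 in liver, and its probes ranged from -0.30 to 0.12 in liver. Cox7b2 was the lowest member in brain at -0.73 ± 0.96, with -2.02 in mouse 1 beside 0.30, -0.69 and -0.51. This low mean came from 1 dye orientation: it was -1.53 ± 1.93 with mutant RNA in Cy5 and 0.07 ± 0.53 with it in Cy3. No gene of complex IV had livers entirely below its brains.

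Complex V, the ATP synthase, had 12 of 14 genes above 0 in brain and 13 of 15 below 0 in liver. By place in the enzyme, the catalytic head and central stalk had medians of 0.05 in brain and -0.24 in liver (5 genes), the peripheral stalk of 0.11 and -0.20 (4 genes), and the membrane part of 0.23 (5 genes) and -0.22 (6 genes). Atp5l, subunit g of the membrane part, was at 0.002, 0.20, 0.51 and 0.20 in brain and at -0.30, -0.36, -0.19 and -0.02 in liver. It joined Ndufa13 and Uqcrh as the only 3 members with every brain above 0 and every liver below, against 1.05% of all genes. For Atp5l, mouse 1's brain and mouse 4's liver were close to 0. The pattern of the 3 rested on averaging the dyes. With mutant RNA in Cy3 the brain means were 0.11 for Atp5l, -0.07 for Ndufa13 and -0.10 for Uqcrh. With it in Cy5 the liver means were 0.08, -0.27 and -0.11. Atp5k, subunit e, was at -0.01, 0.14, 0.68 and 0.34 in brain and at -0.44, -0.33, -0.14 and 0.001 in liver, and Atp5j2, subunit f, at -0.09, 0.27, 0.60 and 0.20 in brain and -0.25, -0.35, -0.11 and -0.02 in liver. For both, mouse 3 was highest in brain and mouse 4 nearest to 0 in liver.

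In the central stalk, Atp5e (subunit epsilon) was at -0.42, -0.58, -0.26 and 0.06 in liver, the lowest tested mean of complex V at -0.30 ± 0.27, and Atp5c1 (subunit gamma) was at -0.38, -0.44, -0.19 and 0.01. Atp5j, coupling factor 6 of the peripheral stalk, was at -0.31, -0.27, -0.19 and -0.14 in liver and at -0.07, -0.01, 0.50 and 0.16 in brain, with no overlap. Atp5g3, a form of the membrane ring, had the widest liver spread of any member, at -0.70, -1.40, 0.74 and 0.25. The only complex V genes with a mean above 0 in liver were Atp5a1 (0.18 ± 0.33) and Atp5d (0.02 ± 0.09). Atp5a1, a catalytic head subunit, rested on 3 probes from -0.27 to 0.96. Of 22 members with over 1 probe, 8 in brain and 6 in liver had probes on both sides of 0, and the median range of a member's probes was 0.12 in each tissue.

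**Figure D3:**
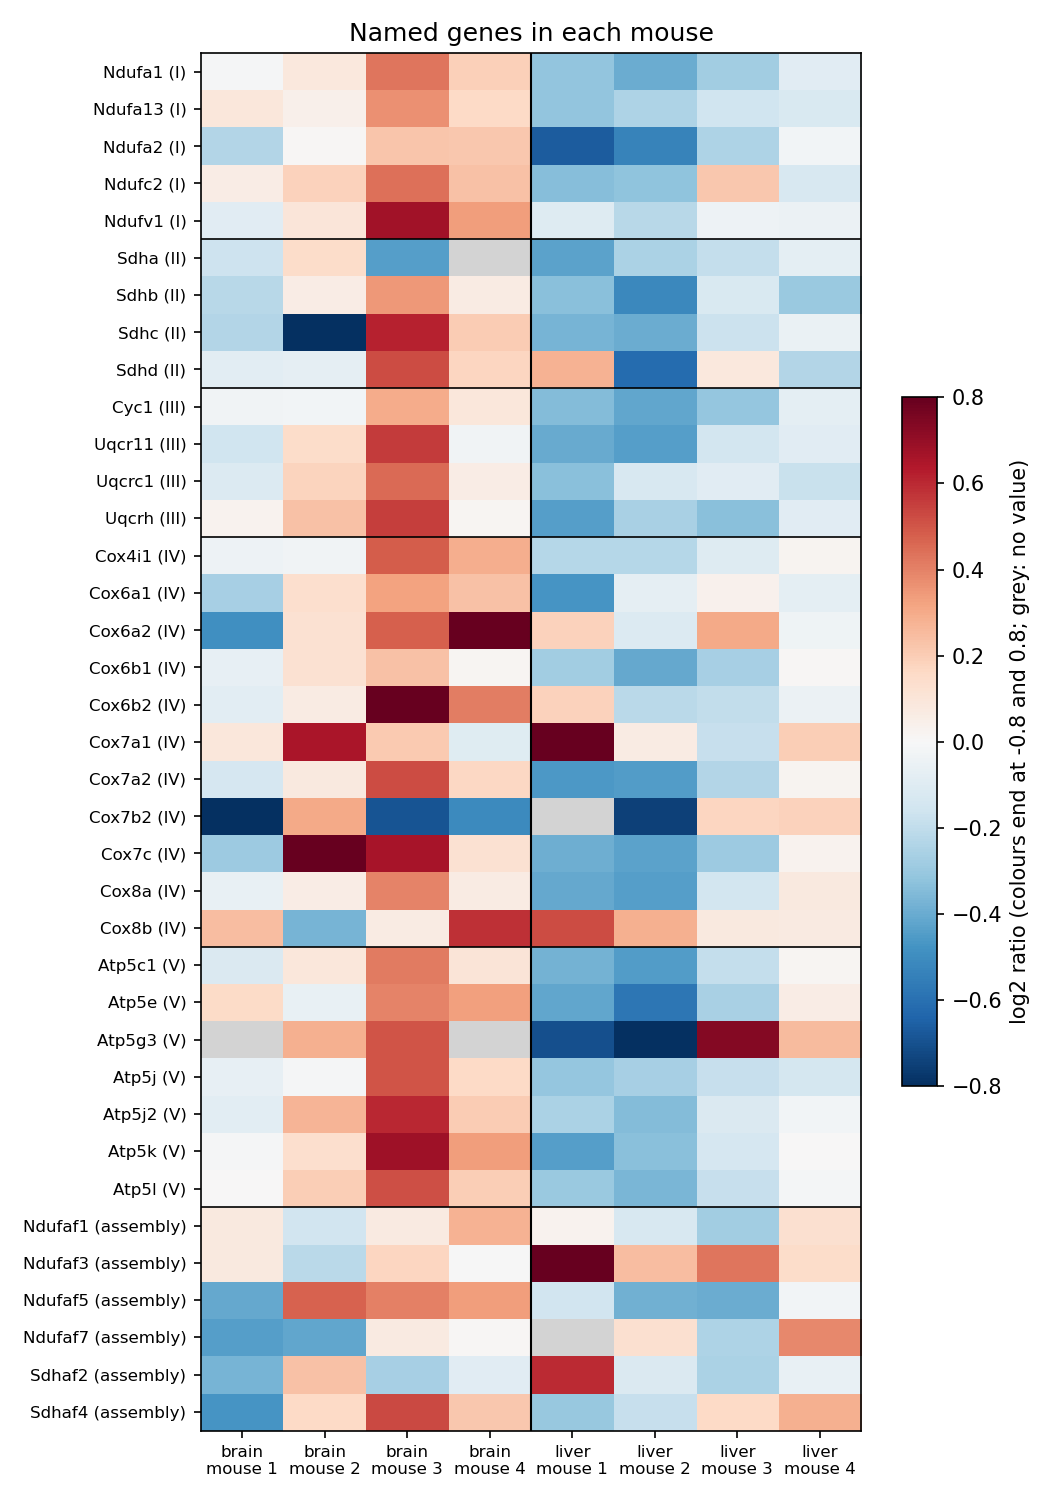
Log2 ratio (colour) of 37 members, grouped by complex, in the brain and liver of each mouse; grey cells have no value. In brain 27 of 36 of these members are below 0 in mouse 1, and 27 of 37, 34 of 37 and 30 of 35 are above 0 in mice 2 to 4, while in liver 27 of 35, 33 of 37, 28 of 37 and 21 of 37 are below 0 in mice 1 to 4.

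The 6 assembly factors, which build the complexes without being part of them, had medians of 0.04 in brain and 0.02 in liver, and 3 of 6 were below 0 in liver. Ndufaf3, a complex I assembly factor, was the highest member in liver at 1.11, 0.24, 0.43 and 0.15. Every liver was above 0, with mouse 1 far above the rest (0.48 ± 0.44; unadjusted limma p 0.032, adjusted 0.575). This value came from 1 dye orientation: its mean was 1.02 ± 0.96 on the arrays with mutant RNA in Cy3 and -0.05 ± 0.23 on those with it in Cy5. Ndufaf5, which in human cells modifies the complex I subunit NDUFS7, was at -0.41, 0.47, 0.40 and 0.34 in brain and at -0.15, -0.38, -0.40 and -0.02 in liver. Sdhaf2, needed to attach flavin to Sdha, was at 0.60 in the liver of mouse 1 and between -0.26 and -0.06 in the others. Ndufaf1, Ndufaf7 and Sdhaf4 had livers on both sides of 0, and their means were -0.06, 0.09 and -0.01. Among 25 assembly factors outside the symbol rule, 16 were below 0 in liver (median -0.06) and 12 of 23 above 0 in brain (median 0.005). Tmem126a, a complex I assembly factor, had the smallest p of that list in liver, at -0.42 ± 0.24 with every liver below 0, and did not pass (adjusted limma p 0.575). Coa5, a complex IV assembly factor, was below 0 in every liver (-0.26 ± 0.13) and in every brain (-0.35 ± 0.21, unadjusted limma p 0.035, adjusted 0.999). Lyrm7, a complex III assembly factor, was also below 0 in every brain (-0.33 ± 0.26). These 2 had the smallest p of that list in brain. Only 1 of the 23 was under an unadjusted limma p of 0.05 there, near the 3.92% of all genes.

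Liver lay below brain for 66 of 74 members, against 57.4% of all genes, with a median difference of -0.25 against -0.05. No member passed the limma test of the difference (0 of 74, against 0.0236% of all genes, smallest adjusted p 0.677). At an unadjusted p under 0.05, which 7.21% of all genes reached, 14 members had lower values in liver than in brain, against 4.61% of all genes, and 0 had higher ones, against 2.61%. The liver was below the brain of the same animal in every mouse for 34 members, against 13.5% of all genes. The contrast was not particular to the members: liver lay below brain for 52 of 54 cytosolic ribosomal protein genes, and in every mouse for 30 of the 54. Livers and brains did not overlap for 7 members, against 3.65% of all genes: Ndufa1, Ndufa13 and Ndufc1 of complex I, Cyc1 and Uqcrh of complex III, and Atp5j and Atp5l of complex V. All 27 genes of complex I, all 4 of complex II and all 8 of complex III had a lower mean in liver than in brain, as did 12 of 15 in complex IV and 12 of 14 in complex V. The exceptions in complexes IV and V were Cox7a1, Cox7b2, Cox8b, Atp5a1 and Atp5d. Gene by gene, the brain and liver means of the members were nearly unrelated (Pearson's r -0.09 over 74 genes, which share arrays and pools).

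Members with an NRF1 word in the promoter window had a liver median of -0.20 (18 of 18 below 0), and those with none of -0.15 (36 of 45 below 0), against 56.6% of all genes. In brain the medians were 0.13 (16 of 17 above 0) and 0.08 (36 of 45). The ranges overlapped widely, and in liver the members with an NRF1 word lay between -0.32 and -0.01. Above 0 in liver among those with none were assembly factors (Ndufaf3, Ndufaf7, Sdhaf2), muscle forms (Cox7a1, Cox8b) and Atp5d, Ndufab1, Ndufb2 and Ndufb3. The word was therefore not separated from the class of member. With the YY1 word the liver median was -0.15 over 10 members, and without it -0.17 over 53.

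Dye orientation moved the level of the members in each tissue by more than the SD over mice (0.20 in brain, 0.13 in liver). With mutant RNA in Cy5 the mean of the structural medians over 4 mice was 0.29 ± 0.28 in brain and 0.01 ± 0.12 in liver. With mutant RNA in Cy3 it was -0.09 ± 0.17 in brain and -0.35 ± 0.21 in liver. Taken from 1 orientation alone, 25 of 75 members were above 0 in brain on the Cy3 arrays, and 40 of 75 were below 0 in liver on the Cy5 arrays. The sign of the members against 0 within a tissue thus depended on averaging both orientations. For all structural members together, liver minus brain was -0.29 on the Cy5 arrays and -0.28 on the Cy3 arrays. By complex it was less alike: complex I was at -0.33 on the Cy5 and -0.14 on the Cy3 arrays, and complex II at -0.17 and -0.46, so that their order turned with the dye. Complexes III, IV and V were at -0.32, -0.24 and -0.28 on the Cy5 arrays and at -0.27, -0.30 and -0.37 on the Cy3 arrays. Over all genes the corresponding medians were 0.11 and -0.06 in brain and 0.01 and -0.07 in liver.

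**Figure D4:**
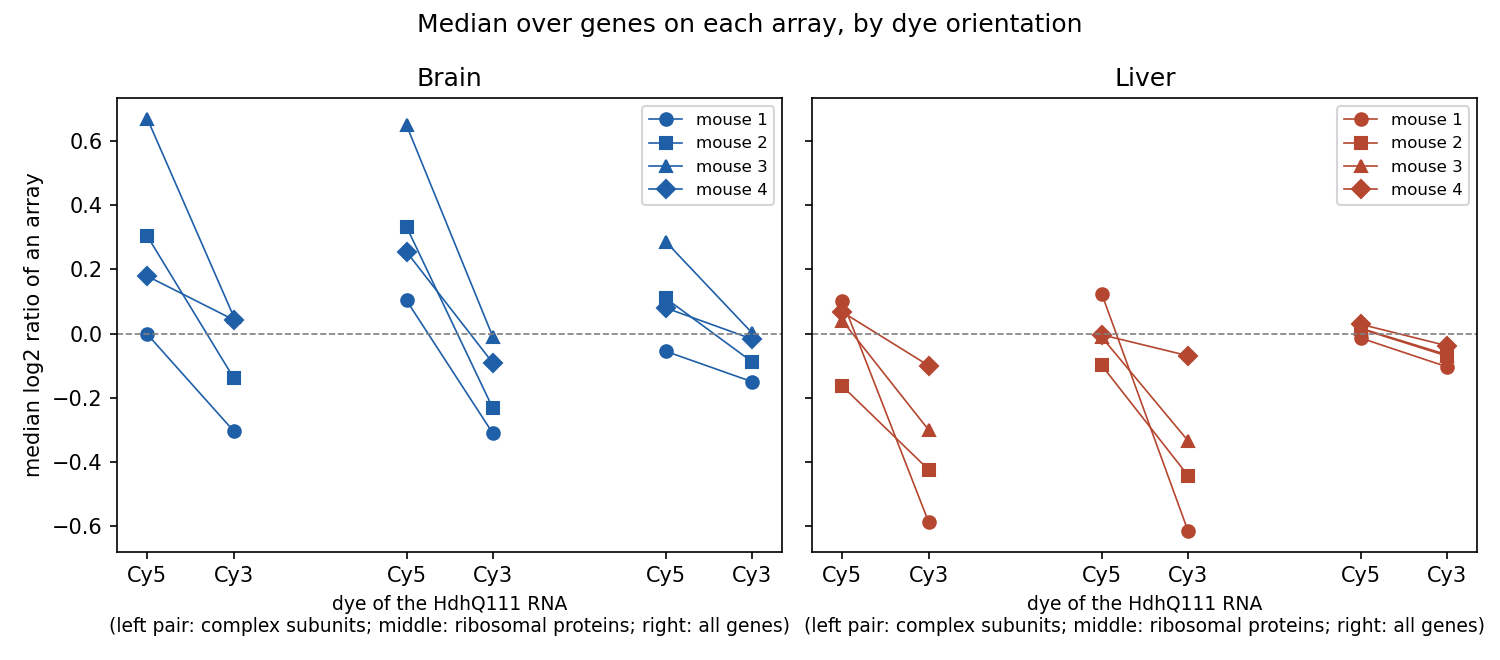
Median log2 ratio of an array (vertical axis) over the structural members, ribosomal protein genes and all genes, with the HdhQ111 RNA in Cy5 or in Cy3; lines join the 2 arrays of a mouse. Structural members and ribosomal protein genes are lower with Cy3 than with Cy5 in every mouse and both tissues.

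Genes for cytosolic ribosomal proteins, which are abundant transcripts with no role in oxidative phosphorylation, gave nearly the same values as the structural members. Of 54 ribosomal genes in liver, 50 were below 0 (median -0.17), against 56.6% of all genes, and in brain 44 of 54 were above 0 (median 0.10), against 56.7%. Mouse by mouse, the structural median differed from the ribosomal median by 0.03 ± 0.03 (SD, n = 4) in brain and 0.002 ± 0.031 in liver. For liver minus brain the ribosomal genes had a median of -0.23, and the structural median differed from theirs by -0.01 ± 0.06 over mice. At an unadjusted limma p under 0.05, 14 of the 54 ribosomal genes were lower in liver than in brain, against 4.61% of all genes. By orientation the ribosomal medians were 0.34 and -0.16 in brain and 0.003 and -0.37 in liver for Cy5 and Cy3. The part that transcript abundance or dye plays in the values of the members was not tested.

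Other mitochondrial lists were read beside the complexes, and no gene of them passed the adjusted threshold. Over all genes, 56.6% were below 0 in liver, 56.7% above 0 in brain, and 5.24% lower in liver at an unadjusted limma p under 0.05. Of 17 genes of the citric acid cycle and pyruvate dehydrogenase, 14 were below 0 in liver (median -0.16, 3 lower at that unadjusted p) and 14 above 0 in brain (median 0.04). Ogdh, the 2-oxoglutarate dehydrogenase, was at -0.25 ± 0.14 and Fh1, fumarase, at -0.23 ± 0.11 in liver, each with every liver below 0. In brain Suclg1, a succinyl-CoA ligase subunit, was at 0.28 ± 0.15 with every brain above 0, and Mdh2, mitochondrial malate dehydrogenase, at 0.22 ± 0.24.

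Of 13 mitochondrial carriers, channels and membrane proteins, 10 were below 0 in liver (median -0.19, 2 lower at that unadjusted p) and 9 of 13 above 0 in brain (median 0.10). The outer membrane channel Vdac3 (-0.28 ± 0.05) and the prohibitin Phb2 (-0.29 ± 0.20) were below 0 in every liver. In brain the dicarboxylate carrier Slc25a10 was at 0.29 ± 0.36, and the aspartate-glutamate carrier Slc25a13 at 0.58 ± 1.27, with mice on both sides of 0. Of 15 genes of coenzyme Q synthesis and electron entry, 12 were below 0 in liver (median -0.10, 2 lower at that p) and 13 above 0 in brain (median 0.03). Coq9, needed to make coenzyme Q, was at -0.32 ± 0.11 and Dhodh, which makes pyrimidines and passes electrons to ubiquinone, at -0.45 ± 0.42, each below 0 in every liver. Sqor, the sulfide quinone oxidoreductase, was above 0 in every brain (0.29 ± 0.16), and Coq8b had brain values from -0.16 to 2.06 in 3 mice.

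All 6 mitochondrial antioxidant genes were below 0 in liver (median -0.19, 2 lower at that p) and 4 of 6 above 0 in brain (median 0.07). Gpx4, which reduces lipid peroxides, was at -0.33 ± 0.17 in liver, and Gpx1, which reduces hydrogen peroxide, at -0.40 ± 0.30 in liver and 0.15 ± 0.20 in brain. Txn2, mitochondrial thioredoxin, was at 0.14 ± 0.25 in brain. The regulators of mitochondrial biogenesis had a liver median of -0.02, with 7 of 13 below 0, and a brain median of 0.03, with 9 of 14 above 0. Nrf1 itself was at -0.21 ± 0.15 and Tfam, which packages mitochondrial DNA, at -0.33 ± 0.38 in liver. Polg, the mitochondrial DNA polymerase, was above 0 in every brain (0.29 ± 0.19), and Yy1 was at -0.29 ± 0.47 in brain, below 0 in 3 of 4 mice. Hepatocyte markers had a liver median of -0.11 (8 of 9 below 0), and neuron markers a brain median of 0.01 (5 of 8 above 0). Astrocyte, oligodendrocyte and microglia markers had brain medians of -0.06, -0.05 and 0.13, and cholangiocyte and stellate markers a liver median of -0.02. The part of tissue composition in the members' values was not tested.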

How the data were processed

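Expression was measured on 2-colour arrays in brain and liver of 4 HdhQ111/+ mice. The values are log ratios that the authors deposited per probe, taken here as log2. Normalization, scanner and filters are not given in the sources used here. Platform symbols name the probes, and the symbol of probe n was given to the value 11 places further down. That offset was chosen in earlier work on these data, partly from the small scatter of oxidative phosphorylation probes, so it is not independent of them, and no source states it. Members and lists were chosen with earlier results of these data known.

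Values over 10 in size were set missing, dye pairs averaged, and probes of a gene averaged. Genes with values in at least 3 mice were tested with limma 3.58.1 (R 4.3.3, lmFit and eBayes, two-sided, Benjamini-Hochberg at 0.05) against 0 in each tissue and for liver minus brain. The script was checked on simulated data. The precision is limited by the number of mice (4) and by the 1 wildtype pool of each tissue. Described by name were the members with the smallest p per complex and contrast, all of complex II, paralogues, assembly factors, extremes of a tissue, and the 2 smallest p per list and tissue. For lists no test was made. Complex submodules and promoter windows were picked after the names were seen. Both tissues came from the same mice, per the labels, so the mouse is a valid block. The main liver-minus-brain test did not use this pairing, and the SE and p given for that difference come from it. With the mouse as a block the SE was 0.147 for Ndufa13, 0.178 for Uqcrh and 0.258 for Cox7c, against 0.138, 0.166 and 0.261 without it. The SE thus rose for some members and fell for others, such as Atp5e (0.152 with the block, 0.180 without). Spearman's rho of the deviations between a mouse's own brain and liver was 0.05, -0.01, 0.07 and 0.04 for mice 1 to 4. Alternatives were each dye alone, centring, scaling, names without the offset, and leaving out each mouse.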

Additional observations from a re-analysis of the deposited data

Results flagged for a closer look

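Of 82 groups of 4 mouse values examined, 1 had a value far from the other 3, where about 5% would be so by chance. It was Ndufaf5 in brain, with mouse 1 at -0.407 and the others between 0.34 and 0.47. The 3 members with every brain above 0 and every liver below were Atp5l, Ndufa13 and Uqcrh. Their liver-minus-brain values were -0.4425, -0.374125 and -0.487. limma tested these differences and none passed (adjusted p 0.677 for each), and 1.05% of all genes had this pattern. It rested on averaging the dyes: on Cy3 alone the brain means of Ndufa13 and Uqcrh were below 0. On Cy5 alone the liver mean of Atp5l was above 0.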

How the results depend on the processing

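No member passed in brain, liver or liver minus brain under any alternative run. With mutant RNA in Cy5 alone, the liver medians of complexes I to V were -0.024, -0.055, -0.026, -0.0011 and 0.048, that of all structural members 0.011, and liver minus brain of complex II -0.17, and 40 members were below 0 in liver. With it in Cy3 alone, the brain medians of complexes I to V were -0.098, -0.014, -0.098, 0.0049 and -0.083. That of all structural members in brain was -0.086, and 25 members were above 0 there. The liver medians on Cy3 alone were -0.26, -0.49, -0.40, -0.29 and -0.47 for complexes I to V and -0.35 for all structural members. With names taken without the offset of 11, the liver medians were -0.00388, 0.17, 0.033 and -0.024 for complexes I, II, III and V and -0.017 for all structural members, liver minus brain was -0.00306 for complex II, -0.014 for complex V and -0.082 for all structural members, and 43 members lay lower in liver. Genes called in brain numbered 3, and 0 with ratios over 10 kept, with arrays centred and scaled or with Cy5 alone, and 1 with arrays centred, with 1 array per mouse enough, with each probe on its own or without the offset. Leaving out 1 mouse gave 0 to 3, and 40 to 65 members above 0 in brain (40 without mouse 3). For liver minus brain 2 genes were called, 1 with ratios over 10 kept, with all 4 mice required or without the offset, and 0 to 1 leaving out 1 mouse. With the mouse as a block, pairing the tissues, 2 genes were called, and 1 when all 4 mice were required, which was added after seeing the data. The block changed no call of a member. Of 36 named members in brain, 18 changed sign on Cy3 alone, and of 37 in liver 14 on Cy5 alone. Without the offset 16 of 36 changed sign in brain and 18 of 37 in liver. Ndufa4 was not among the named probes, so its move to complex IV was not run. The causes were not tested.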
